A study of Saccharomyces cerevisiae with 17 samples.

Results

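Transcript levels of a Saccharomyces cerevisiae strain with a deletion of SPL2 were compared with those of the parent strain BY4741 after 60 min without phosphate. A feature entered where it reached 1 RPM (a read number divided by the library's total and scaled up) in at least 3 of the 6 libraries of this comparison, which kept 6031 of 7125 features. The study examined how phosphate genes are controlled by Spl2, 14-3-3 protein and alternative transcription, and held 17 libraries in all. BY4741 is a widely used haploid strain (mating type a) with defects in amino acid and uracil synthesis, so leucine, histidine, methionine and uracil were added to every culture. Both groups were grown at 7.2 mM potassium phosphate with 50 mM KCl, washed in medium without phosphate, and shaken at 0 mM phosphate for 60 min before freezing. The BY4741 group consists of libraries 14, 16 and 17, and the spl2 deletion group of libraries 12, 19 and 20. The labels give the deletion as "spl2" and say neither which bases were removed nor whether cultures came from more than 1 clone. The same strains at 7.2 mM phosphate, 3 libraries of BY4741 and 2 of the deletion, serve as reference for which differences depended on phosphate. A further library, of a bmh1 deletion at 7.2 mM, entered the statistical fit but was not compared.

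Yeast senses phosphate through the PHO pathway. When phosphate is scarce the inhibitor Pho81 blocks the kinase Pho80-Pho85, and the transcription factor Pho4, acting with Pho2, enters the nucleus and binds the sequence CACGTG in the promoters of phosphate genes, which encode the high-affinity transporters Pho84 and Pho89, secreted acid phosphatases and the enzymes that build vacuolar polyphosphate. SPL2 is itself a Pho4 target; its small protein lowers the activity of the low-affinity transporter Pho87 and so takes part in the switch from low- to high-affinity uptake.

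The 6 libraries held 22004771 to 40493274 reads, so that 3 reads corresponded to between 0.0741 and 0.136 RPM. The description of the series gives 2 spl2 cultures without phosphate and 3 with it, whereas the sample labels give 3 and 2; the labels were followed. SPL2 had 6490, 6843 and 10362 reads in the BY4741 libraries and 0, 8 and 1 in the deletion libraries, so the libraries match their labels for the targeted gene. LEU2, URA3 and MET17 had 0 reads in all 6 libraries of both strains, whereas HIS3 had 3872 to 7185 reads. Of the mating type a markers 2 of 7 passed the test described below, both lower in the deletion: the a-cell-specific gene ASG7 by 0.37 and the agglutinin subunit gene AGA2 by 0.32 on the log2 scale, the latter lost with the gene length trend removed (adjusted p = 0.182). By that test 7.44% of all features were lower. The summed level of the list was 1188 to 1271 RPM in BY4741 and 1079 to 1168 RPM in the deletion, and 0 of the 3 alpha markers tested passed by limma, edgeR or DESeq2, with 1 at an unadjusted limma p under 0.05.

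Most differences between the strains were small. With limma on log2(RPM + 1), Benjamini-Hochberg adjustment and a threshold of 0.05, 789 features passed (13.1% of those tested), 340 higher (5.64%) and 449 lower (7.44%) in the deletion. The median size was 0.23 on the log2 scale among the higher and 0.26 among the lower. On the log2(RPM + 1) scale only 1 called feature was at least 1.5-fold higher, YGR109W-B of a retrotransposon. By contrast 23 were at least 1.5-fold lower, of which SPL2, ARO9 and COS12, a subtelomeric gene with near-identical relatives, reached 2-fold. The 3 values of one strain lay wholly above those of the other for 15.2% of all features with the deletion higher and for 20.1% with it lower. Leaving out BY4741 library 16 gave 228 calls, BY4741 library 14 gave 369, spl2 library 19 gave 282 and spl2 library 20 gave 480, and 69 higher and 131 lower calls held in each of the 6 fits that leave out a library. After TMM scaling 492 were higher (8.16%) and 463 lower (7.68%). DESeq2 on recovered reads called 565 higher and 492 lower, so it put 53.5% of its calls higher against 43.1% here.

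The strain difference rose with gene length. Over 5707 protein-coding genes Spearman's rho between the log2 difference and annotated length was 0.590, a description across genes, which are not independent replicates. The median difference went from -0.19 in the 186 genes of up to 300 bases to 0.14 in the 303 genes over 3600 bases. Called-higher genes had a median length of 2430 bases and called-lower genes one of 630 bases. By library, the deviation of log2(RPM + 1) from the mean of the 11 libraries of both strains at both levels correlated with length at rho 0.482, 0.621 and 0.604 in spl2 libraries 12, 19 and 20, and at -0.100, -0.0693 and 0.101 in BY4741 libraries 14, 16 and 17. At 7.2 mM the strain difference ran the other way, at rho -0.391; there BY4741 library 10 stood at 0.145, BY4741 libraries 11 and 13 at -0.440 and -0.316, and spl2 libraries 7 and 18 at -0.469 and -0.427. After each library's trend with length was removed, 292 features were higher (5.11% of 5716) and 234 lower (4.09%), 379 of them among the 789 above, and 55.5% of the calls were higher. RNA integrity and fragment size per library are not in the sources used here, so the part of length in each result was not tested. For most of the larger gene lists the count with the trend removed is given beside the result. For the others at most the values of single genes are given.

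**Figure D1:**
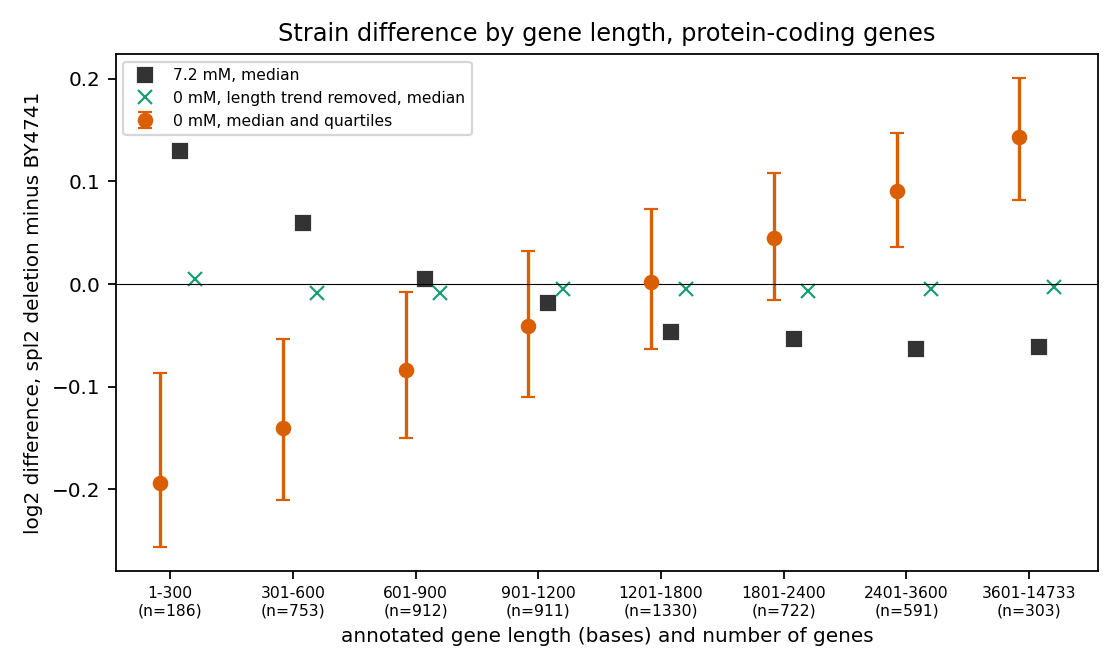
Log2 difference between the spl2 deletion and BY4741 (vertical axis) for protein-coding genes grouped by annotated length in bases (horizontal axis, with the number of genes); circles with bars are medians and quartiles at 0 mM, squares medians at 7.2 mM, and crosses medians at 0 mM with the length trend removed. The circles climb from -0.19 for the shortest genes to 0.14 for the longest, and the squares descend from 0.13 to -0.062.

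SPL2 lies on the reverse strand of chromosome VIII at chrVIII:374654-375100 (R64 assembly). Its level was 295, 287 and 308 RPM in the BY4741 libraries 14, 16 and 17. It was 0, 0.210 and 0.0247 RPM in the deletion libraries 12, 19 and 20. The fitted difference of -8.11 on the log2(RPM + 1) scale depends on the pseudocount of 1, since the deletion is close to 0.

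ARO9, which encodes an aromatic amino acid aminotransferase used in the breakdown of tryptophan and tyrosine, is the divergent neighbour of SPL2, with 608 bases between both coding sequences. Its level was 71.2, 73.3 and 66.8 RPM in BY4741 and 30.1, 26.4 and 28.0 RPM in the deletion. All deletion values lay well below all BY4741 values. The fall was 2.50-fold, -1.29 ± 0.075 (SE from the limma fit over all its groups, with 3 libraries per strain compared) on the log2 scale. Its limma adjusted p was 5.56e-08, and it was the largest fall after SPL2 among features with a mean of at least 10 RPM. At 7.2 mM, where ARO9 averaged 9.31 RPM in BY4741, the difference was -0.37 (limma adjusted p = 0.0687), and the 2 differences themselves differed by -0.92 ± 0.11 (adjusted p = 0.00019). The other 3 genes of the list of aromatic amino acid breakdown did not pass the test. The stretch between SPL2 and ARO9 holds CACGTG 4 times, 31, 90, 147 and 361 bases before the SPL2 start codon. 2 of these windows are shown because both genes read away from them. They are given on the SPL2 strand in lower case with CACGTG in capitals (R64):
SPL2 and ARO9, 147 bases before SPL2, chrVIII:375225-375264: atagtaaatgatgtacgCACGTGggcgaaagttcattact
SPL2 and ARO9, 361 bases before SPL2, chrVIII:375439-375478: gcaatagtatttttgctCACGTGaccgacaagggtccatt
Whether the deletion removed any of these bases is not given in the sources used here.

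Further neighbours moved less. YHR138C, the gene behind ARO9, fell from 71.3, 68.5 and 64.9 RPM to 52.2, 52.2 and 54.9 RPM, by 0.35 ± 0.051 on the log2 scale (limma adjusted p = 0.00068), while at 7.2 mM it rose by 0.32 (adjusted p = 0.0129). IGO2, whose protein inhibits a phosphatase when cells enter quiescence, fell by 0.28 (adjusted p = 0.00836). The spore wall gene SPS100 fell by 0.36 (adjusted p = 0.0257), and YCK1, a casein kinase gene on the same strand whose start lies 343 bases from the end of SPL2, rose by 0.21 (adjusted p = 0.0174). The call of SPS100 held in 1 and that of YCK1 in 2 of the 6 fits that leave out a library, with adjusted p of up to 0.105 and 0.0978. With the length trend removed YHR138C, IGO2, SPS100 and YCK1 differed by -0.20, -0.14, -0.32 and 0.19 (adjusted p = 0.00745, 0.0493, 0.0375 and 0.00855). WSS1, NSG1 and YHR139C-A, the remaining neighbours examined, had differences of -0.090, -0.084 and -0.15 and did not pass.

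The PHO regulon held genes that were lower in the deletion and genes that did not pass. Of its 20 members, SPL2 included, 10 fell and 0 rose (0 rose by edgeR, by DESeq2 or at an unadjusted limma p under 0.05), and the median difference of the other 19 was -0.16, against -0.017 over all features tested. The count without SPL2, whose fall the deletion itself sets, was 9 of 19 (47.4%, against 7.44% of all features lower). It was 6 to 8 when a library was left out (6 without BY4741 14, spl2 19 or spl2 20), and 8 with the length trend removed, against 4.09% of all features.

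**Figure D2:**
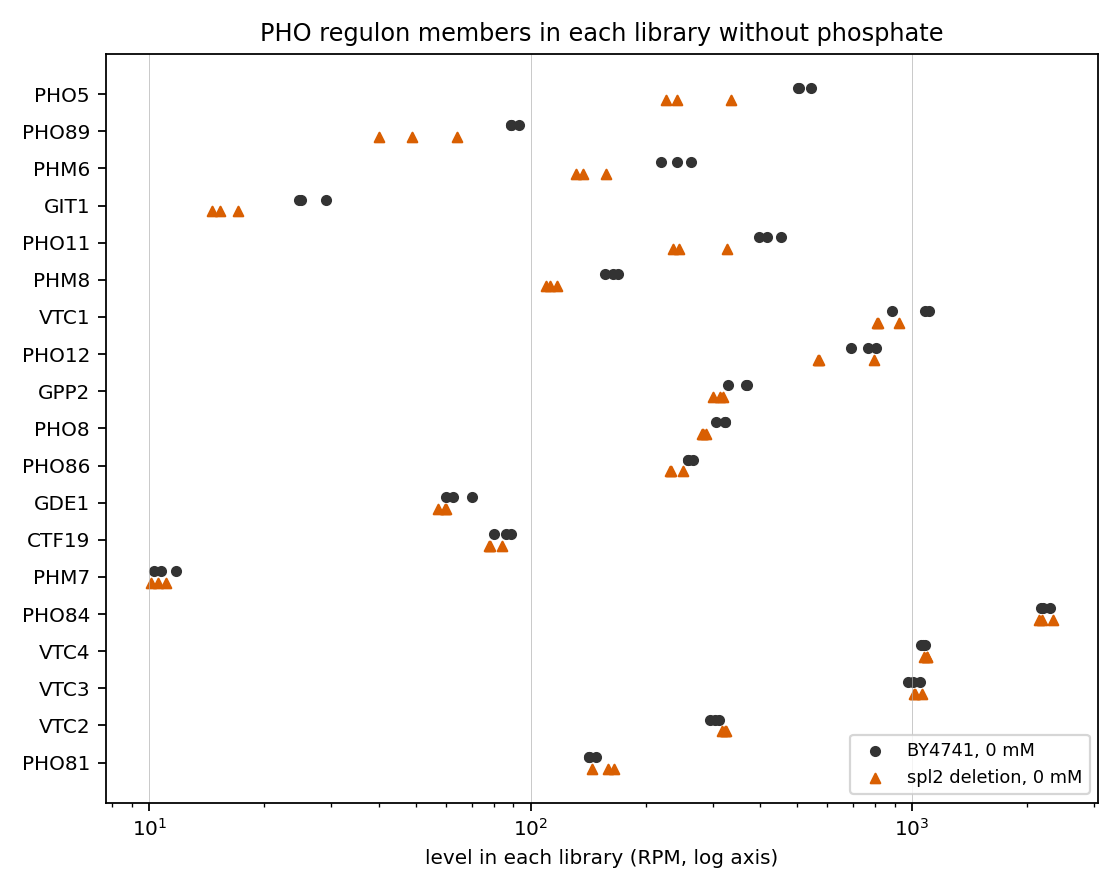
Level in RPM (horizontal log axis) of 19 PHO regulon members (vertical axis; SPL2 is not drawn) in each of the 3 BY4741 libraries (circles) and the 3 spl2 deletion libraries (triangles) at 0 mM phosphate, ordered by the log2 difference. The triangles lie left of the circles from PHO5 down to PHM8, and the symbols overlap for PHO84, VTC3 and VTC4.

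The secreted acid phosphatases release phosphate from organic compounds outside the cell. PHO5, which encodes the main one, was at 504, 503 and 542 RPM in BY4741 and at 334, 242 and 226 RPM in the deletion. The groups did not overlap, and spl2 library 12 stood higher than libraries 19 and 20. PHO5 fell 1.93-fold, by 0.97 ± 0.10 (SE) on the log2 scale with a limma adjusted p of 5.59e-05. PHO11 was at 397, 416 and 453 RPM in BY4741 and 326, 236 and 245 RPM in the deletion, again with library 12 the highest of the 3, and fell by 0.66 ± 0.099 (adjusted p = 0.000998). PHO12 was at 690.0, 769 and 804 RPM and 795, 572 and 565 RPM; library 12 lay among the BY4741 values and the difference of -0.24 ± 0.10 did not pass (adjusted p = 0.122), although it passed when library 12 was left out (-0.40, adjusted p = 0.00256). PHO11 and PHO12 are near-identical copies near chromosome ends, their promoter windows below are the same letters, and how reads common to both were counted is not given, so their single values are uncertain. The vacuolar alkaline phosphatase gene PHO8 fell by 0.16 (adjusted p = 0.048), a call that held in 0 of the 6 fits without a library, in which the adjusted p reached 0.172.

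Among the genes of phosphate uptake, PHO89 and GIT1 were lower and PHO84 did not pass. PHO89, the sodium-phosphate cotransporter gene, was at 88.7, 89.0 and 93.2 RPM in BY4741 and 64.2, 40.0 and 48.7 RPM in the deletion, with no overlap. It fell 1.77-fold, by 0.84 ± 0.12 (adjusted p = 0.000494). GIT1, the gene of the permease for glycerophosphoinositol and glycerophosphocholine, was at 29.1, 25.02 and 24.6 RPM against 15.3, 17.0 and 14.6 RPM and fell by 0.71 ± 0.095 (adjusted p = 0.000408). PHO84, which encodes the high-affinity proton-phosphate symporter, was at 2200.4, 2183 and 2297 RPM in BY4741 and 2346, 2151 and 2194 RPM in the deletion. The ranges overlapped and the difference was 0.0018 ± 0.053 (adjusted p = 0.987), with a sign that turned when the length trend was removed (-0.029). PHO86, whose product lets Pho84 leave the endoplasmic reticulum, differed by -0.13 (adjusted p = 0.094).

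Enzymes and proteins of the phosphate store gave both patterns. PHM6, a phosphate-regulated gene with no known function, was at 263, 242 and 220.0 RPM in BY4741 and 157, 131 and 137 RPM in the deletion and fell by 0.76 ± 0.11 (adjusted p = 0.00065). PHM8, which encodes a phosphatase of lysophosphatidic acid and nucleotides, went from 157, 164 and 169 to 109, 112 and 117 RPM, a fall of 0.53 ± 0.055 (adjusted p = 5.10e-05). Neither gene had overlapping groups. Of the 4 VTC genes, which encode the complex that makes polyphosphate in the vacuole membrane, VTC1 fell by 0.27 (adjusted p = 0.0452), while VTC2, VTC3 and VTC4 differed by 0.081, 0.025 and 0.024 (adjusted p = 0.254, 0.839 and 0.767). With the length trend removed those of VTC3 and VTC4 were -0.053 and -0.034. The VTC1 call was lost after TMM scaling (adjusted p = 0.0874), with the length trend removed (0.359, difference -0.12), and in all but 2 of the fits without a library (up to 0.201). GPP2, a glycerol-phosphate phosphatase gene, fell by 0.19 (adjusted p = 0.0379), lost with the length trend removed (0.215) and in all but 1 of the fits without a library (up to 0.152). PHO81, GDE1, CTF19 and PHM7 did not pass, at 0.11, -0.12, -0.087 and -0.041; GDE1, a glycerophosphocholine phosphodiesterase gene, was lower with the length trend removed (-0.24, adjusted p = 0.013).

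The Pho4 sequence was found before members that fell and before members that did not pass. CACGTG lay within 600 bases before the start codon in 18 of the 20 members (90.0%), on either strand, and in 7.32% of the 5708 promoters of tested protein-coding genes; the 2 without it were PHM7 and PHM8. That window was chosen after seeing the data; from 250 bases before to 50 after the start codon, 4 of the 20 (20.0%) and 2.94% of the 5708 held it. The windows below set the fallen PHO5, PHO11, PHO89, PHM6 and GIT1 beside PHO84 and VTC3, which did not pass, each read on the gene's own strand from the R64 assembly, with CACGTG in capitals:
PHO5, 253 bases before the start, chrII:431182-431221: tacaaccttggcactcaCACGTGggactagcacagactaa
PHO11 (identical before PHO12), 283 bases, chrI:225160-225199: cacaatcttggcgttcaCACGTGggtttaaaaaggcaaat
PHO89, 323 bases, chrII:798823-798862: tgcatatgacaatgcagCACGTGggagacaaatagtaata
PHM6, 279 bases, chrIV:1022578-1022617: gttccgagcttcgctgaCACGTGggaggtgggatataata
GIT1, 518 bases, chrIII:299101-299140: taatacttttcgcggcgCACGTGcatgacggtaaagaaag
PHO84, 414 bases, chrXIII:26192-26231: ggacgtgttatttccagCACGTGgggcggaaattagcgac
PHO84, 436 bases, chrXIII:26214-26253: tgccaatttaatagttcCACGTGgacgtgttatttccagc
VTC3, 311 bases, chrXVI:517307-517346: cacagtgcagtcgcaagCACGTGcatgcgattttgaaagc
VTC3, 345 bases, chrXVI:517341-517380: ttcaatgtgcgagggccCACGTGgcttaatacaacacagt
A match is a description of letters and no measurement of binding.

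With phosphate the pattern within the PHO regulon was a different one. At 7.2 mM PHO84 was lower in the deletion by 2.59 (limma adjusted p = 5.73e-14), VTC3 by 1.20, VTC4 by 0.78 and PHO12 by 1.22, none of which passed at 0 mM. The strain difference of PHO84 at 0 mM stood 2.59 ± 0.080 above that at 7.2 mM (adjusted p = 9.71e-12), and it also stood higher for VTC3, VTC4, PHO12, PHO81 and VTC2. PHO5 went the other way: its fall at 0 mM exceeded that at 7.2 mM by 0.74 ± 0.15 on the log2 scale (adjusted p = 0.00561), as did those of GIT1 and PHM8. PHO89, PHM6 and PHO11 fell at both levels, by 0.91, 1.12 and 0.82 at 7.2 mM, and for these 3 the differences between the levels did not pass (adjusted p = 0.825, 0.151 and 0.498). With the length trend removed that of PHM6 did pass, at 0.60 (adjusted p = 0.0153), and those of PHO89 and PHO11 did not (0.989 and 0.708). VTC1 passed only with that trend removed, at 0.46 (adjusted p = 0.0218, against 0.187 before). Over all features 30 passed at 7.2 mM (0.497%) and 887 differed in their strain difference between the levels (14.7%).

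**Figure D3:**
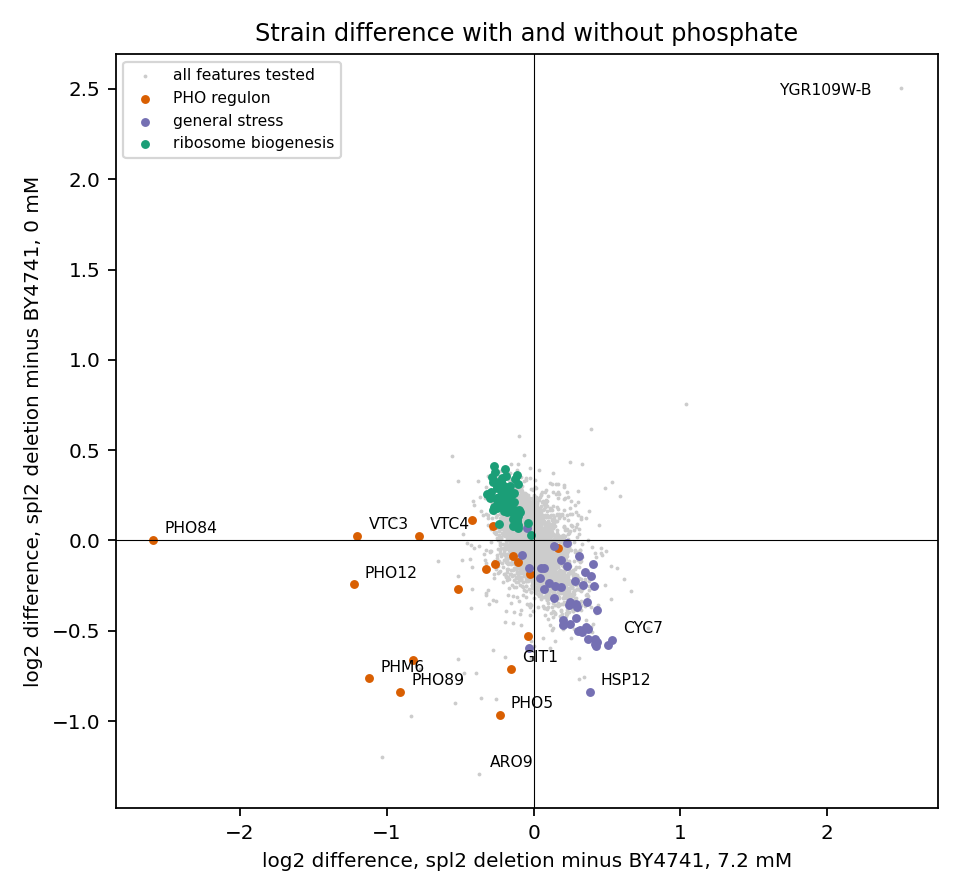
Log2 difference between the spl2 deletion and BY4741 at 7.2 mM (horizontal axis) and at 0 mM phosphate (vertical axis) for all features tested except SPL2, with 3 gene lists in colour. PHO84 lies at the far left on the zero line of the vertical axis, the general stress genes lie mostly in the lower right and the ribosome biogenesis genes in the upper left.

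The low-affinity side of phosphate transport showed 1 change. PHO90, which encodes a low-affinity plasma membrane transporter, was at 82.3, 79.6 and 81.9 RPM in BY4741 and 88.8, 96.4 and 97.4 RPM in the deletion, with no overlap. It rose by 0.21 ± 0.051 (limma adjusted p = 0.0153), a call that held in 3 of the 6 fits without a library (up to 0.0796). With the length trend removed the rise of PHO90 was 0.13 (adjusted p = 0.0484). PHO87, the gene of the transporter that Spl2 acts on at the protein level, was at 91.0, 87.1 and 96.3 RPM against 88.8, 95.1 and 98.8 RPM, with overlapping ranges and a difference of 0.042 ± 0.065 (adjusted p = 0.713) that was -0.048 with the length trend removed. The vacuolar exporter gene PHO91 and the plasma membrane exporter gene SYG1 differed by 0.15 and 0.11 and did not pass.

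Of 9 signalling genes tested 1 rose and 0 fell by limma (11.1% called, against 5.64% of all features higher). Both edgeR and DESeq2 called 2 higher, and with the length trend removed limma called 0. PSE1, the importin that carries Pho4 into the nucleus, rose by 0.19 (adjusted p = 0.0335). That call was lost with the length trend removed (0.147) and held in 2 of the fits without a library (up to 0.151). MSN5 was higher by 0.15 with no overlap but did not pass (limma adjusted p = 0.0728). It passed after TMM scaling (0.0196), and with the length trend removed it differed by 0.024 (0.724). PHO4 and PHO2, the genes of the activators, differed by 0.13 and 0.026, and PHO80 and PHO85, those of the cyclin and its kinase, by -0.057 and -0.079; none of these passed. The 14-3-3 genes BMH1 and BMH2 differed by -0.084 and -0.0026 and did not pass either. DDP1, which encodes a phosphatase of inositol pyrophosphates and polyphosphate, went from 144, 143 and 142 RPM to 122, 121 and 123 RPM and fell by 0.22 ± 0.048 (adjusted p = 0.00869); with the length trend removed its adjusted p was 0.0915. The list of polyphosphate breakdown enzymes held 0 calls among its 4 genes by limma, edgeR or DESeq2, and 0 at an unadjusted limma p under 0.05.

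General stress genes, which the transcription factors Msn2 and Msn4 switch on through the sequence AGGGG when growth slows, were lower in the deletion for most members. Of 46 members 28 fell (60.9%, against 7.44% of all features) and 0 rose (0 also by edgeR, by DESeq2 and at an unadjusted limma p under 0.05). A negative difference was found in 45, and the median was -0.34. The count was 20 without spl2 library 19, 21 without BY4741 library 16 and 24 to 29 without any of the other 4 libraries. It was 27 with the length trend removed, against 4.09% of all features. The list's summed level was 7831 to 8095 RPM in BY4741 and 5928 to 6439.5 RPM in the deletion. Members of up to 900 bases had a median of -0.54 against -0.11 over all genes of that length, those over 900 and up to 1800 bases -0.31 against -0.013, and those over 1800 bases -0.17 against 0.079.

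HSP12, which encodes a small membrane-protecting protein, was at 809.7, 705 and 933 RPM in BY4741 and 436, 506 and 422 RPM in the deletion. The groups did not overlap, and it fell 1.80-fold, by 0.84 ± 0.10 (limma adjusted p = 0.000169). The small heat shock protein gene HSP26 was at 77.6, 66.5 and 83.6 RPM against 48.3, 51.1 and 49.6 RPM and fell by 0.60 ± 0.075 (adjusted p = 0.000232). HOR7, a gene induced by osmotic stress, fell by 0.58. SOL4, which encodes a 6-phosphogluconolactonase of the pentose phosphate pathway, fell by 0.57. RTC3 fell by 0.58, and DDR2, a gene induced by DNA damage and other stresses, by 0.56. The call of DDR2 was lost with the length trend removed (adjusted p = 0.0786). The regulator genes themselves did not pass, with MSN2 at 0.12, MSN4 at -0.055 and the kinase gene RIM15 at 0.082 (adjusted p = 0.159, 0.587 and 0.465).

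Windows around AGGGG, or CCCCT where it lies on the other strand, are shown for 4 of the fallen stress genes, on the gene's strand with the motif in capitals (R64):
HSP12, 190 bases before the start, chrVI:107049-107087: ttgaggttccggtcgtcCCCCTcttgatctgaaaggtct
HSP12, 232 bases, chrVI:107007-107045: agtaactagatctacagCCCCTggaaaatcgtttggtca
RTC3, 200 bases, chrVIII:280603-280641: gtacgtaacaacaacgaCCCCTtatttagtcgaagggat
DDR2, 203 bases, chrXV:231937-231975: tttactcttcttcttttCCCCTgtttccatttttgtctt
HSP26, 326 bases, chrII:381687-381725: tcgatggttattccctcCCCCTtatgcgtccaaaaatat
From 250 bases before to 50 after the start codon, AGGGG on either strand was found before 39.8% of 437 called-lower genes (Wilson 95% interval 35.3 to 44.5), 15.8% of 336 called-higher genes (12.3 to 20.1) and 21.8% of all 5708 promoters of tested protein-coding genes. With the length trend removed the share among the 234 lower genes was 50.0%. It was 69.6% in the general stress list and 5.0% in the PHO regulon. The HSP26 window shown, 326 bases before the start, lies outside the 250 bases counted here.

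Some genes of carbohydrate stores and vacuolar turnover fell, set against 7.44% of all features called lower, or 4.09% with the length trend removed. In the trehalose and glycogen list 5 of 22 fell and 0 rose, and 8 fell with the length trend removed. PGM2, the phosphoglucomutase gene, fell by 0.48 ± 0.078 (adjusted p = 0.00186), and the glycogen branching enzyme gene GLC3 by 0.46 ± 0.10 (adjusted p = 0.0112). The count of this list was 1 without spl2 library 19 and 2 without BY4741 library 16. Of the 5 that fell, PGM2, GLC3, GSY1 and GPH1 belong to the stress list too, and only GLG1 does not. Of 19 genes of autophagy and vacuolar proteases 4 fell and 0 rose, 6 with the length trend removed. ATG8, the ubiquitin-like protein of the autophagosome membrane, was at 15.3, 17.0 and 16.5 RPM against 10.6, 10.8 and 11.2 RPM and fell by 0.54 ± 0.067 (adjusted p = 0.000232), ATG14, a subunit of the autophagy lipid kinase, by 0.40, and ATG19, a receptor for vacuolar enzymes, by 0.24. In the chaperone list 2 of 22 fell, a share (9.09%) near the 7.44% over all features, and DESeq2 also called 1 member higher. The 2 falls were HSP42, which is in the stress list too, by 0.39 and HSP10 by 0.23. HSP42 held in 3 of the fits without a library (up to 0.112), the count was 1 without BY4741 library 16, spl2 library 19 or spl2 library 20, and both calls were lost with the length trend removed (adjusted p = 0.0547 and 0.345), where SSA4 and SSE2 passed instead.

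Ribosome biogenesis genes, whose products make and assemble ribosomal subunits in the nucleolus, were higher in the deletion for most members. Of 84 members 56 rose (66.7%, against 5.64% of all features) and 0 fell (0 also by edgeR, by DESeq2 and at an unadjusted limma p under 0.05). All 84 had a positive difference, against 2723 of 6031 over all features, and the median was 0.24. The individual rises were small, at most 0.41 on the log2 scale. With the length trend removed 66 rose, against 5.11% of all features, and the median was 0.21. Before that correction, 19 rises were left without BY4741 library 16, 36 without library 14, and 26 and 34 without spl2 libraries 19 and 20.

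DBP2, an RNA helicase gene of the list, was at 228, 205 and 259.5 RPM in BY4741 and 312, 306 and 302 RPM in the deletion, with no overlap, and rose by 0.41 ± 0.069 (limma adjusted p = 0.00214). UTP10, part of the small-subunit processome, rose by 0.40 ± 0.074 (adjusted p = 0.00395). NSR1, a nucleolin-like protein gene, rose by 0.38, RRP5 by 0.36, UTP13 by 0.36 and the GTPase gene NOG1 by 0.35, and each of these calls held in all 6 fits without a library and with the length trend removed. With that trend removed the rises were 0.33 for DBP2, 0.24 for UTP10, 0.39 for NSR1, 0.20 for RRP5, 0.28 for UTP13 and 0.31 for NOG1. RSA4, a ribosome assembly gene outside the list, rose by 0.39, and TOD6, a repressor that binds the promoters of such genes, by 0.37 (adjusted p = 0.00666).

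The PAC element GATGAG and the RRPE element AAAATTTT mark promoters of ribosome biogenesis genes. The windows show the first of these in capitals, or CTCATC where it lies on the other strand, on the gene's strand (R64):
DBP2, 155 bases before the start, chrXIV:413467-413506: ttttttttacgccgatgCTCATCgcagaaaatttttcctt
NSR1, 187 bases, chrVII:807821-807860: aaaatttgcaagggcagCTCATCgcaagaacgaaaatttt
RRP5, 151 and 156 bases, chrXIII:731252-731291: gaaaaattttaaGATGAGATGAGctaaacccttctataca
RPA190, 167 and 172 bases, chrXV:960803-960842: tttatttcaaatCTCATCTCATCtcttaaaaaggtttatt
From 250 bases before to 50 after the start codon, GATGAG was found before 44.6% of the 336 called-higher genes (Wilson 95% interval 39.4 to 50.0), 18.5% of the 437 called-lower genes (15.2 to 22.4) and 20.0% of all 5708. AAAATTTT was found before 36.3%, 3.66% and 9.20% in the same order. In the ribosome biogenesis list the shares were 95.2% and 81.0%. With the length trend removed they were 58.9% and 46.9% among the 292 higher genes. Both strands were searched, GATGAG can share its last letters with the start of AGGGG, and these shares carry no test.

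Some genes of other parts of the machinery for making proteins rose, set against 5.64% of all features called higher, or 5.11% with the length trend removed. In the list of RNA polymerases I and III, which make ribosomal RNA and transfer RNA, 7 of 20 rose and 0 fell, and 8 rose with the length trend removed. RPA190, the largest subunit gene of polymerase I, was at 205, 211 and 203 RPM against 244, 282 and 279 RPM and rose by 0.37 ± 0.067 (limma adjusted p = 0.00318), RPO31, its counterpart in polymerase III, by 0.37, and RPA135 by 0.34. With the length trend removed these 3 rises were 0.22, 0.23 and 0.22. The count of that list was 3 without BY4741 14, BY4741 16, spl2 19 or spl2 20. Of 22 translation factor genes 11 rose and 0 fell, and 7 rose with the length trend removed. YEF3, the fungal elongation factor gene, went from 3797, 3760.4 and 3893 RPM to 4626, 4825 and 4693 RPM and rose by 0.30 ± 0.054 (adjusted p = 0.00314), and the initiation factor subunit genes RPG1 and NIP1 rose by 0.33 and 0.33. This count was 7, 4, 7 and 5 without BY4741 14, BY4741 16, spl2 12 and spl2 19.

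Of 138 cytosolic ribosomal protein genes 1 passed by limma, RPL4B, higher by 0.19 (adjusted p = 0.0265), and the median was -0.046; the call of RPL4B held in 1 of the fits without a library (up to 0.113). DESeq2 called 5 members higher and 2 lower, edgeR called 1, and 22 had an unadjusted limma p under 0.05. Many of these genes are short and come in near-identical pairs, so single members are uncertain, and with the length trend removed RPL4B, RPL8B and RPL22B passed and the median was 0.033. Of 70 mitochondrial ribosomal protein genes 18 fell (25.7%, against 7.44% of all features lower). However, all 18 were among the 53 members of up to 900 bases, whose median of -0.15 stood beside -0.11 for all genes of that length. With the length trend removed 2 of the 70 passed, MRPS18 and MRP8, both lower, against 4.09% of all features. The list was matched by name, and whether each member, MRP8 among them, encodes a mitochondrial ribosomal protein was not checked. The count was 5, 2, 9 and 5 without BY4741 14, BY4741 16, spl2 12 and spl2 19.

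**Figure D4:**
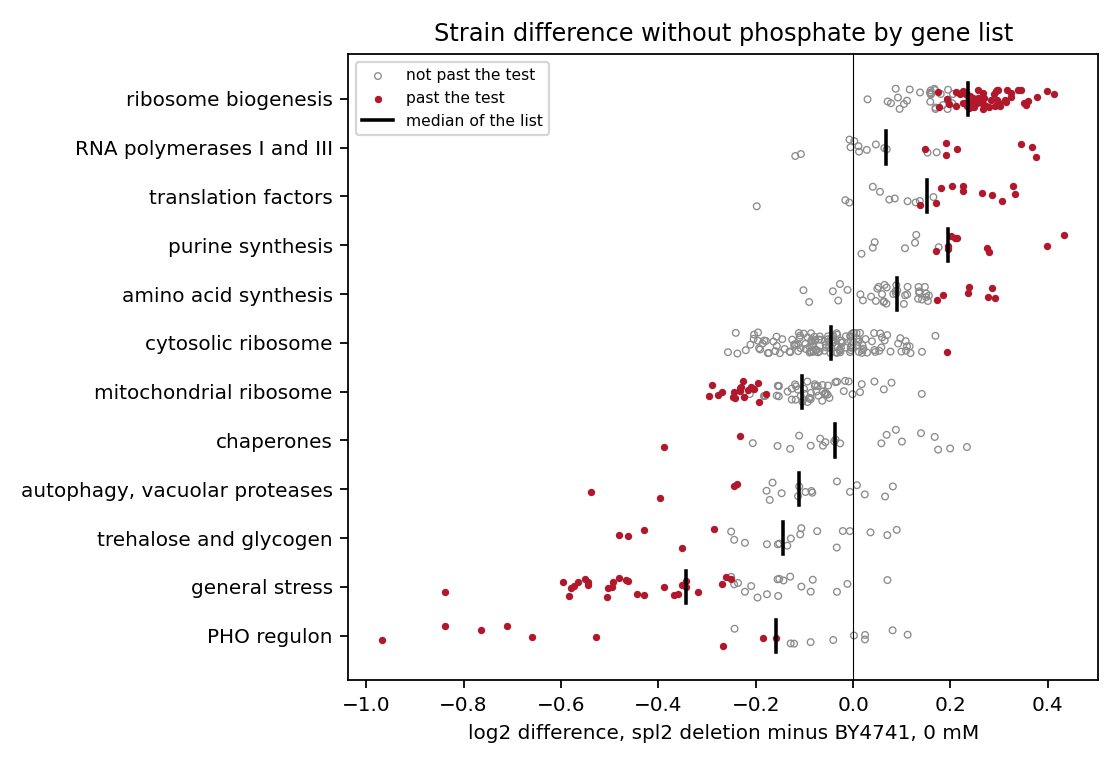
Log2 difference between the spl2 deletion and BY4741 at 0 mM phosphate (horizontal axis) for the members of 12 gene lists (vertical axis); filled points passed the limma test, open points did not, and black bars are medians. SPL2 is not drawn. Of 46 general stress genes 45 lie left of 0, with a median of -0.34, and all ribosome biogenesis genes lie right of 0 with a median of 0.24.

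In the lists of nucleotide and amino acid synthesis more genes rose than fell. Of 17 purine synthesis genes 10 rose and 0 fell (58.8% called, against 5.64% of all features higher). With the length trend removed 10 rose among the 16 with a length, against 5.11% of all features. IMD2, an inosine monophosphate dehydrogenase gene, was at 63.8, 62.6 and 65.8 RPM in BY4741 and 95.02, 85.8 and 80.5 RPM in the deletion and rose by 0.43 ± 0.062 (limma adjusted p = 0.00068). Its near copies in the genome make the single value uncertain. ADE6, an enzyme gene of the purine ring, was at 478, 478 and 444 RPM against 632, 597 and 616 RPM and rose by 0.40 ± 0.055 (adjusted p = 0.000494). The purine count was 5, 6 and 4 without BY4741 14, BY4741 16 and spl2 19. In the pyrimidine list URA2, whose product catalyses the first steps of the pathway, rose by 0.42 ± 0.073 (adjusted p = 0.00276), and URA7 by 0.23, while URA10, a minor orotate phosphoribosyltransferase gene, fell by 0.32. With the length trend removed these 3 differences were 0.24, 0.20 and -0.24, and 3 of the list's 10 genes rose and 1 fell. Both strains lack URA3 and were fed uracil. URA7 held in 3 of the fits without a library (up to 0.0882).

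In one-carbon metabolism 4 of 11 rose (36.4%, against 5.64% of all features), among them MIS1 by 0.30, GCV2 by 0.27 and the serine hydroxymethyltransferase gene SHM2 by 0.27. ADE3 rose by 0.21, and both ADE3 and SHM2 belong to the purine list too. GCV2 and ADE3 were lost with the length trend removed (adjusted p = 0.104 and 0.187), where 3 members rose. Of 44 amino acid synthesis genes controlled by Gcn4, 7 rose and 0 fell (15.9%, against 5.64% of all features higher), with LYS2 at 0.29, ILV2 at 0.28 and LEU9 at 0.24, and 4 rose with the length trend removed, against 5.11% of all features. That count was 4 to 5 without any 1 of BY4741 14, BY4741 16, spl2 19, spl2 20 and spl2 12, and 10 without BY4741 17. The lists of sulfate and methionine metabolism, zinc, histones and the tricarboxylic acid cycle held 0 calls by limma among 23, 8, 10 and 24 genes. At an unadjusted limma p under 0.05 they held 8, 1, 0 and 6; edgeR called 1 sulfate and methionine gene lower, and DESeq2 called 1 gene higher in that list and 1 in the tricarboxylic acid list.

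Glycolysis gave both directions, with 2 of 18 genes higher and 2 lower (22.2% called, against 13.1% of all features). With the length trend removed 1 rose and 2 fell. TDH1, the glyceraldehyde-3-phosphate dehydrogenase gene linked to stress and slow growth, was at 371, 310.5 and 379 RPM in BY4741 and 235, 271 and 224 RPM in the deletion and fell by 0.54 ± 0.090 (limma adjusted p = 0.00227). The phosphofructokinase genes PFK1 and PFK2 rose by 0.20 and 0.23; they held in 2 and 4 of the fits without a library (up to 0.106 and 0.0622), and PFK1 was lost with the length trend removed (0.181). Of 13 hexose transporter genes 2 fell by limma (15.4%, against 7.44% of all features lower), HXT7 by 0.30 and HXT5 by 0.25. These 2 calls held in 4 and 2 of the fits without a library (up to 0.0702 and 0.0971), and 2 fell with the length trend removed. DESeq2 called 2 members of that list higher and 2 lower, and the list's median difference was 0.029. Of 22 iron uptake genes 2 rose and 0 fell by limma (9.09%, near the 5.64% of all features higher). With the length trend removed 3 rose, and edgeR called 5 higher. The copper-dependent iron oxidase gene FET3 was at 154, 150.0 and 153 RPM against 193, 207 and 199 RPM and rose by 0.39 ± 0.056 (adjusted p = 0.00068). Of 13 genes of phospholipid and inositol synthesis 2 fell and 0 rose (15.4%, against 7.44% of all features lower), and 1 fell with the length trend removed. OPI3, a phospholipid methyltransferase gene of that list, fell by 0.39 ± 0.058 (adjusted p = 0.000929).

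Of 22 regulators of growth and stress signalling 3 rose, against 5.64% of all features higher, and IGO2, described above, was among those that fell. IFH1, the coactivator gene of ribosomal protein transcription, rose by 0.31 (adjusted p = 0.00816), the kinase gene SCH9 by 0.25 (0.00987) and the activator gene SFP1 by 0.20 (0.023). The 3 rises held in 5, 4 and 2 of the fits without a library (up to 0.0554, 0.0646 and 0.0954), and SFP1 was lost with the length trend removed (0.0631). The list then held 3 rises, SFP1 not among them.

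**Figure D5:**
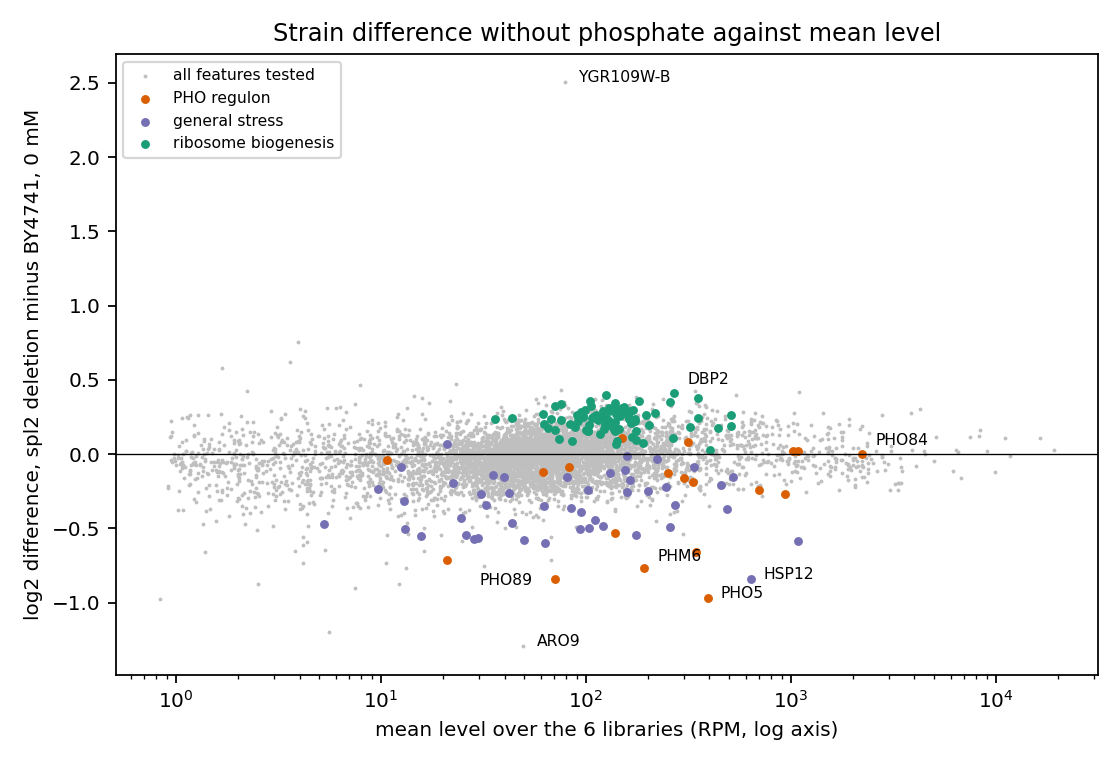
Log2 difference between the spl2 deletion and BY4741 at 0 mM phosphate (vertical axis) against the mean level over the 6 libraries in RPM (horizontal log axis), for all features tested except SPL2, whose difference is -8.11. Most features lie close to 0; PHO5, PHO89, PHM6, HSP12 and ARO9 are the labelled genes below -0.7 and YGR109W-B stands alone at 2.50.

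In the stress and ribosome biogenesis lists the strain differences at both phosphate levels differed from each other. At 7.2 mM the median difference was 0.29 in the stress list and -0.20 in the ribosome biogenesis list, against -0.023 over all features. In the stress list 6 of 46 passed at 7.2 mM, all higher (0.216% of all features were higher), and in the ribosome biogenesis list 0 of 84 passed by limma, while 66 were lower and 0 higher at an unadjusted limma p under 0.05. The difference at 0 mM was lower than that at 7.2 mM in 37 stress genes and higher in 74 ribosome biogenesis genes (7.79% and 6.91% over all features). Of the 12 features that fell at 0 mM and rose at 7.2 mM, RTC3, SOL4 and CYC7, a cytochrome c isoform gene, had the largest rises, at 0.51, 0.42 and 0.53. Only 2 deletion libraries stand behind the values at 7.2 mM, and the trend with gene length also had opposite signs at the 2 levels; with it removed the medians at 7.2 mM were 0.30 and -0.16.

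Features of the Ty3 retrotransposon differed between the strains at 0 mM, and 3 of the 5 also passed at 7.2 mM. YGR109W-B, the coding sequence of 1 copy, was at 31.7, 24.4 and 15.2 RPM in BY4741 and 126, 133 and 142 RPM in the deletion, a rise of 2.50 ± 0.17 (limma adjusted p = 4.64e-07), and it was higher by 2.50 at 7.2 mM (adjusted p = 1.35e-06). The 4 other Ty3 features fell, among them YIL080W, from 73.9, 84.3 and 93.3 RPM to 50.3, 51.3 and 50.4 RPM. Reads of repeated elements can be placed on more than 1 copy, and how they were counted is not given, so these values are uncertain. Of the extreme genes with no list, YBR285W fell by 0.77, YNR034W-A by 0.75 and YMR321C by 0.88, while FCY22, a purine-cytosine permease family gene, rose by 0.38, each with groups that did not overlap. FCY22 was lost without BY4741 library 16 (adjusted p = 0.0838).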

How the data were processed

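Stranded mRNA libraries were sequenced on an Illumina instrument, per the labels' protocols. The authors deposited RPM values for 7125 features in 1 table; the aligner, the counter, the build and the use of strand are, in the sources used here, not given. Every value was a whole number of reads at a tolerance of 0.001 (100% of values), so reads were recovered. The counts served edgeR 4.0.16 and DESeq2 1.42.0 as alternatives, which called 992 and 1057 features; 1 line of the table was empty. The log2(RPM + 1) values of the 12 libraries of the first experiment (5 groups, 7 residual degrees of freedom) were fitted with limma 3.58.1 in R 4.3.3 with an intensity trend. The groups were BY4741 and the spl2 deletion at both phosphate levels, and 1 library of a bmh1 deletion at 7.2 mM. Values after ± are standard errors from that fit, which shares its spread over the groups and across genes. They do not give the spread of the 3 libraries of a strain. Folds are ratios of mean RPM; log2 differences understate changes of low features. Intervals and floors cover counting error only. The series description calls the cultures independent, and every pair of libraries of a strain differed beyond sampling noise, with a chi-square per feature of 4.90 to 26.4 on average. The fit was tested on simulated data.

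Named genes are SPL2 with 4 neighbours on each side, the PHO regulon, transport and signalling lists, the 12 highest and 12 lowest changes past the test with a mean of at least 10 RPM and separate groups, and up to 6 members of each of the other lists. Features named outside that rule are LEU2, URA3, MET17, HIS3, CYC7, COS12, SSA4, SSE2, RPL8B and RPL22B, chosen after their values were seen. The members and the 38 lists were chosen with earlier results of these data known. Names matched the R64 assembly for 6205 features, which gave lengths and sequences by that assembly's own gene positions. Lengths are annotated gene spans. Alternatives were TMM scaling, pseudocounts of 0.1 and 5, other filters, the 6 libraries alone, both count tests and leaving out each library; removal of the length trend (loess, span 0.5) and the window of 600 bases were added after seeing the data. The result of a further gene of the list of growth and stress regulators is not reported here.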

Additional observations from a re-analysis of the deposited data

Results flagged for a closer look

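The strain difference (log2, spl2 deletion minus BY4741) at 0 mM differed from that at 7.2 mM, by the limma interaction term over all features, for genes of the PHO regulon in both directions. It stood higher at 0 mM for PHO84 by 2.59 (adjusted p = 9.71e-12), for VTC3 by 1.23, for PHO12 by 0.98, for VTC4 by 0.81, for PHO81 by 0.53 and for VTC2 by 0.36. It stood lower at 0 mM for PHO5 (-0.74, adjusted p = 0.00561), GIT1 (-0.56) and PHM8 (-0.49). For the low-affinity transporter genes PHO90 and PHO87 it was higher by 0.27 and 0.30 (adjusted p = 0.0289 and 0.0481); with the length trend removed these were 0.13 and 0.16 (adjusted p = 0.159 and 0.115). ARO9 and YHR138C, neighbours of SPL2, gave -0.92 and -0.68, and the stress gene HSP12 gave -1.22 (adjusted p = 0.000224). In the general stress list the term passed for 37 members, all lower at 0 mM, and in the ribosome biogenesis list for 74 members, all higher at 0 mM. The values at 7.2 mM rest on 2 deletion libraries.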

How the results depend on the processing

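Among 141 named genes 113 were called, and 58 of these kept direction and call under every alternative tried. The number of calls ran from 228 to 913 when 1 library was left out, the higher calls from 77 to 350 and the lower calls from 151 to 563; the rises in ribosome biogenesis ran from 19 to 68. DESeq2 on recovered reads raised the higher calls to 565, and removal of the length trend reduced the lower calls to 234, from 449. That removal also ended the call of 29 named genes; the cause was not tested. Small differences that did not pass changed sign: with the length trend removed PHO84 was -0.029, PHO81 -0.0049, VTC3 -0.053, VTC4 -0.034, PHO87 -0.048, PHO13 0.028, YHR139C-A 0.020, BMH2 0.061 and RIM15 -0.078, and BMH2 was 0.0020 after TMM scaling and 0.0061 with DESeq2. When 1 library was left out PHO84 ranged from -0.035 to 0.027, VTC3 from -0.0011 to 0.052, PHM7 from -0.080 to 0.0077, PHO2 from -0.0037 to 0.062 and BMH2 from -0.034 to 0.016. No paired analysis was possible because the library numbers in the labels are not shared between the strains. At this depth 3 reads correspond to at most 0.136 RPM, and with 3 libraries per strain differences that did not pass are not shown to be absent.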

Other observations

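Lists not yet described held few calls by limma. In the respiratory chain the cytochrome oxidase subunit genes COX12 and COX13 fell by 0.21 and 0.19 and CYC1, the main cytochrome c gene, rose by 0.20; with the length trend removed the falls were lost (adjusted p = 0.712 and 0.404) and CYC1 was higher by 0.36 (adjusted p = 0.000461). These calls held in 1, 3 and 1 of the 6 fits without a library (adjusted p of up to 0.164, 0.107 and 0.129). Over all features 7.44% were called lower and 5.64% higher. Of 33 proteasome genes 2 fell (6.06%) and of 16 cell wall genes 2 rose (12.5%). RPN13 and RPN8 fell by 0.18 and 0.16, and the glucan synthase gene FKS1 and the regulator gene RLM1 rose by 0.24 and 0.23; with the length trend removed 0 members of either list passed, with adjusted p of 0.491, 0.0765, 0.34 and 0.107. In the iron uptake list described above, FIT3, a cell wall mannoprotein gene of iron retention, rose by 0.31 and by 0.41 with the length trend removed. The call held in 3 of the 6 fits without a library (adjusted p of up to 0.0796).

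Across 5707 protein-coding genes the strain differences at 0 mM and at 7.2 mM, which share no library, had a Spearman's rho of -0.532, and of -0.409 with the length trend removed. Genes are not independent replicates, cultures at both levels could come from the same overnight culture, and both differences have the same strains in the same order, so this is a description.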
